A study of Homo sapiens with 4 samples.

Results

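The 44 genes described here take up glucose, break it down to pyruvate and lactate, pass it through the pentose phosphate pathway, store it as glycogen or carry pyruvate into mitochondria. They were picked by symbol for their place in these pathways, out of 58219 genes in the deposited table, and each symbol matched 1 gene. The list was drawn up with earlier results of these data known. The cells were U87, an established human glioblastoma line, grown in a medium with 4.5 g/L glucose, no pyruvate and 10% fetal bovine serum. After 24 h in culture they received fresh medium with 50 mM carnosine, the dipeptide of beta-alanine and histidine, or without it, and RNA was taken 24 h later. There were 2 libraries of each group, called control and carnosine replicates 1 and 2, all from this 1 line. The comparison asks how the mRNAs of glucose use differ when carnosine is present.

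Glucose enters a cell through transporters and is trapped by hexokinase as glucose 6-phosphate, from which glycolysis, glycogen synthesis and the pentose phosphate pathway branch. Phosphofructokinase commits the sugar to glycolysis and is switched on by a bisphosphate that the PFKFB enzymes make and remove. Gliomas are known for turning much of their glucose into lactate, which monocarboxylate carriers export, while the mitochondrial pyruvate carrier and pyruvate carboxylase lead pyruvate into mitochondria.

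Libraries held between 51632970 and 71766267 counts. The 44 genes took 2.69% of the counts in each control library, and 2.68% and 2.88% in carnosine replicates 1 and 2. Of the markers of the label, VIM (283462 to 527581 counts) and CD44 (64968 to 91079) were abundant, whereas the astrocyte marker GFAP had 4 to 16 counts, SOX2 at most 2 and S100B 0. NES had 1426 to 2583 counts, OLIG2 105 to 253, and CHI3L1, a mesenchymal marker, rose (log2 fold change 0.55, adjusted p = 0.0243 in edgeR). The summed level of these 8 markers, mostly VIM, was 8851 and 8319 CPM (counts scaled to a common library size) in the controls and 7101 and 7358 CPM with carnosine. Among 11 markers of neurons, leukocytes, endothelium and epithelium, RBFOX3, AIF1 and CDH5 had 0 counts in every library. PECAM1, an endothelial marker, was the 1 of these that passed the test, with 148 and 153 counts in the controls and 365 and 265 with carnosine. The summed level of the 11 was 30.9 and 28.4 CPM in the controls and 26.5 and 23.8 CPM with carnosine, and the part of both lists in the results below was not tested.

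A glucose transporter and a hexokinase rose with carnosine and a phosphofructokinase fell, while the most abundant enzymes of glycolysis did not pass the test. Past the threshold, an adjusted p under 0.05 in edgeR's quasi-likelihood test over 16340 genes, were 7 of the 44 genes. HK2, SLC2A1 and PC rose, and ENO2, PFKL, GYS1 and TALDO1 fell. All 44 passed the filter on low counts, with no fewer than 162 counts in any library. Of 70 other genes of the same pathways, 31 were not tested. The share called was 15.9%, against 8.31% of all genes tested. These shares are set side by side as a description, because the 44 were chosen with earlier results of these data known. By direction, 3 rose (6.82%, against 3.95% of all genes) and 4 fell (9.09%, against 4.36%). The median log2 fold change was -0.09 over the 44 and 0.0009 over all genes tested, and 31 of the 44 lay below 0, against 49.9% of all genes. Only PFKFB3 (-0.0062), GBE1 (-0.0062), PGM1 (-0.021) and MPC2 (-0.017) changed sign under any of the other 3 scalings of the libraries, and 27 of the 44 lay below 0 with library totals. The median size of change, regardless of sign, was 0.18 for the 44 and 0.26 for all genes tested. All genes tested include some with far fewer counts than the 44, and these medians were not matched for level. Of the 37 that did not pass, 36 had a 95% interval of the fold change inside 2-fold in either direction and 28 inside 1.5-fold. In bulk RNA, fewer cells with a transcript and less of it per cell cannot be told apart.

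**Figure D1:**
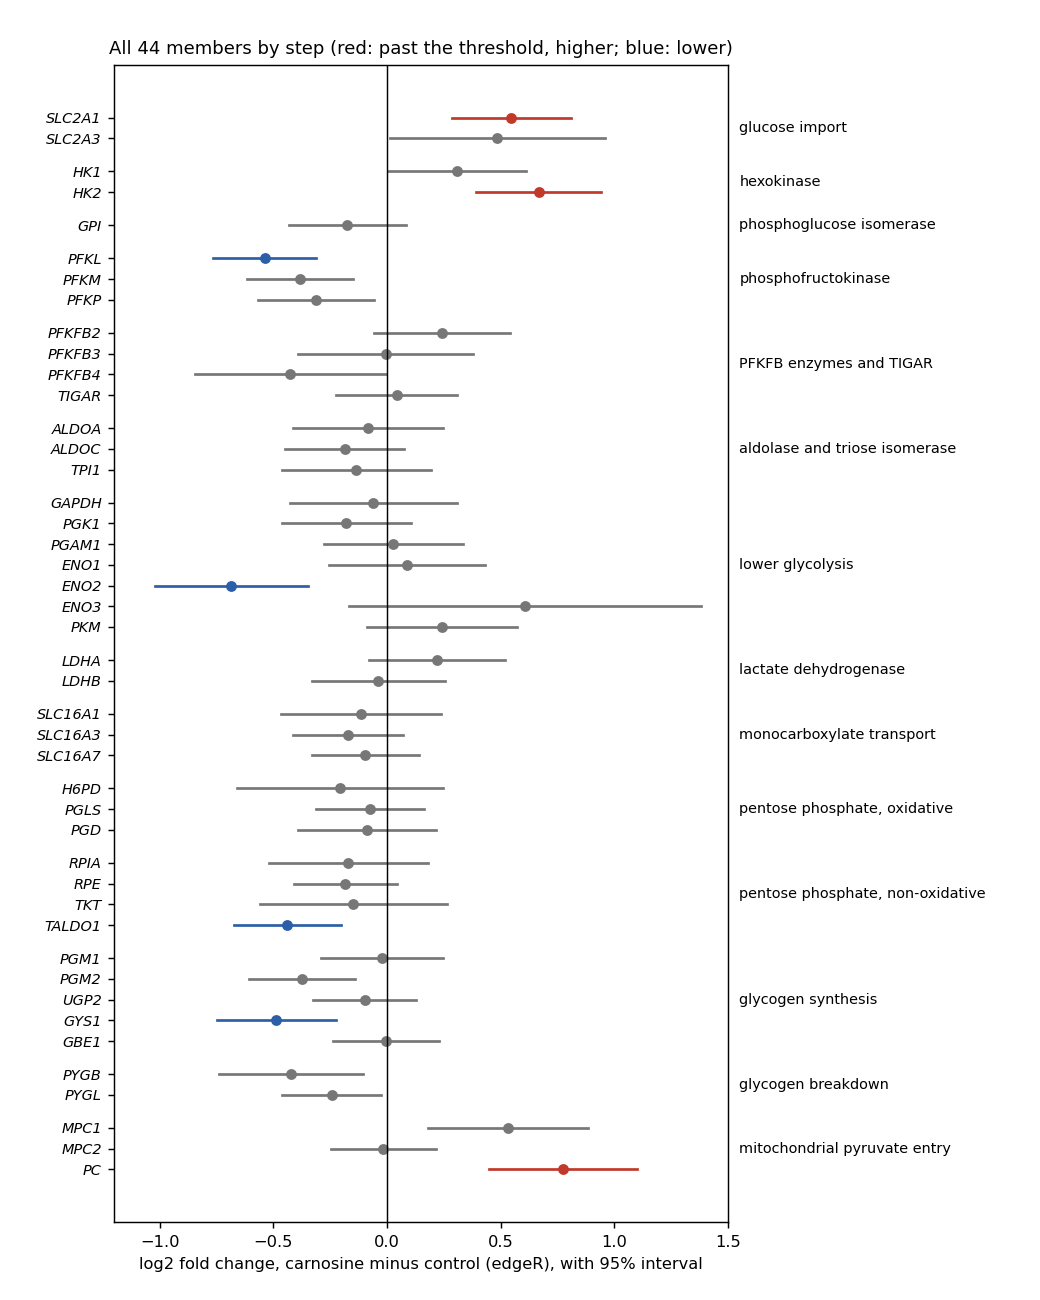
Log2 fold change of each of the 44 genes, carnosine minus control, with its 95% interval (edgeR, 2 libraries per group), ordered by pathway step. The genes past the threshold are HK2, SLC2A1 and PC to the right of 0 and ENO2, PFKL, GYS1 and TALDO1 to the left, and all 3 phosphofructokinases lie to the left.

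Levels of the 44 genes spanned a range of 2502-fold per exonic length. CPM, taken over the TMM-scaled total of the genes tested, were divided by the kilobases of exon for this comparison between genes. These are all annotated exons of a gene merged, which can be longer than the transcript in use. GAPDH, which oxidises glyceraldehyde 3-phosphate, had the highest mean, 2374 CPM per kilobase, followed by ENO1 at 921, PKM at 538, TPI1 at 495 and ALDOA at 405. The muscle enolase ENO3 had the lowest, 0.949. The 8 genes with the highest levels held 80.1% of the counts of the 44 genes, and 0 of them passed the edgeR test, with 0 at an unadjusted p under 0.05 and 0 called by DESeq2 or limma-voom. The called genes lay lower, from 56.6 CPM per kilobase for TALDO1, 34.4 for HK2 and 30.1 for ENO2 down to 9.10 for PC. In this order LDHB (241) and LDHA (235), and PGAM1 (127) and PGK1 (126), differed by less than the spread between libraries, whereas neighbours such as GAPDH and ENO1 stood well apart. The order depends on the exon lengths. Before that division LDHA had a control mean of 1351 CPM, over 6210 bases of exon, and LDHB 727 CPM, over 2983 bases.

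**Figure D2:**
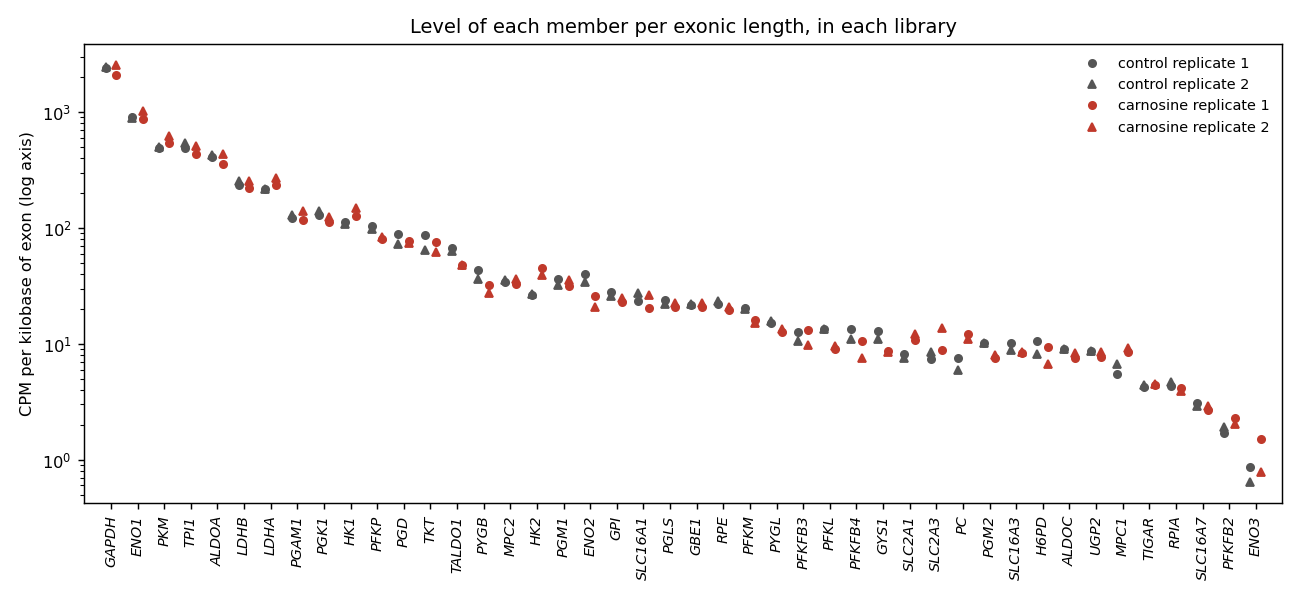
Level of each of the 44 genes in CPM per kilobase of exon, on a log axis, in each of the 4 libraries, ordered by the mean of all 4. GAPDH stands highest at a mean of 2374 and ENO3 lowest at 0.949, and for most genes the 4 symbols lie close together on this scale.

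For glucose import, SLC2A1, or GLUT1, the transporter of basal glucose uptake, rose 1.46-fold, and SLC2A3, or GLUT3, a high-affinity transporter of neurons and gliomas, did not pass the test. SLC2A1 (ENSG00000117394.20, chromosome 1, 42925375 to 42959176, GRCh38) had 38.8 and 35.4 CPM in control replicates 1 and 2 and 50.5 and 57.9 CPM in carnosine replicates 1 and 2. Both carnosine libraries lay above both controls, and the log2 fold change was 0.55 ± 0.11 (SE, n = 2 each, adjusted p = 0.0336, edgeR). SLC2A3 had 45.6 and 52.8 CPM in the controls and 54.2 and 83.6 CPM with carnosine. Its carnosine libraries differed more from each other than the lower of them did from the controls, and its log2 fold change of 0.49 ± 0.20 had an adjusted p of 0.172 in edgeR. Per kilobase SLC2A1 and SLC2A3 stood at nearly the same mean level, 9.67 and 9.58. SLC2A1 lost its call when control replicate 1 (adjusted p = 0.0692) was left out, and likewise for control replicate 2 (0.167) and carnosine replicate 2 (0.0603), while SLC2A3 ranged from a log2 fold change of 0.13 without carnosine replicate 2 (adjusted p = 0.568) to 0.76 without carnosine replicate 1, where it passed (0.0120). SLC2A3 is near-identical to SLC2A14, to which 19 counts were assigned over the 4 libraries, so its count may hold or lack reads that fit both genes.

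HK1 and HK2, the hexokinases among the 44, lay above both controls, as did 27.8% of all genes tested. HK2, the inducible isoform of tumours and muscle, rose 1.59-fold. HK2 (ENSG00000159399.9, chromosome 2, 74833981 to 74893359) had 159 and 163 CPM in the controls and 276 and 236 CPM with carnosine. These groups were apart by more than their spread, with a log2 fold change of 0.67 ± 0.12 (SE, n = 2 each, adjusted p = 0.0234, edgeR). HK1, the constitutive isoform and the more abundant at 123 CPM per kilobase, had 714 and 675 CPM in the controls and 790.0 and 930.5 CPM with carnosine. It did not pass, with a log2 fold change of 0.31 ± 0.13 and an adjusted p of 0.176 in edgeR. The sum of HK1 and HK2 was 873 and 838 CPM in the controls and 1066 and 1167 CPM with carnosine. HKDC1, a further hexokinase outside the 44, had 23.0 and 26.9 CPM in the controls and 30.9 and 24.6 CPM with carnosine, which overlapped. Leaving out control replicate 1 (adjusted p = 0.0918) or control replicate 2 (0.0857) ended the call of HK2, where its log2 fold change was 0.65 and 0.68. GPI, the isomerase of the next step, had 299 and 277 CPM in the controls and 244 and 266 CPM with carnosine and did not pass (log2 fold change -0.17 ± 0.11, adjusted p = 0.355 in edgeR).

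The phosphofructokinases lay below both controls for all 3 isoforms, as did 28.8% of all genes tested. PFKL, the liver isoform, fell 1.45-fold. PFKL (ENSG00000141959.16, chromosome 21, 44300051 to 44327376) had 121 CPM in each control and 80.6 and 85.6 CPM with carnosine, with a log2 fold change of -0.54 ± 0.10 (SE, n = 2 each, adjusted p = 0.0252, edgeR). PFKM, the muscle isoform, went from 150.0 and 146 CPM to 117 and 110.1 CPM, with -0.38 ± 0.10 and an adjusted p of 0.0600, and PFKP, the platelet isoform, from 506 and 475 CPM to 388 and 402 CPM, with -0.31 ± 0.11 and an adjusted p of 0.120 in edgeR. PFKP held most of the family, 91.6 CPM per kilobase against 17.9 for PFKM and 11.4 for PFKL, so the isoform that passed was the scarcest. The summed level of all 3 was 777 and 742 CPM in the controls and 586 and 598 CPM with carnosine, with no overlap. PFKL lost its call with either control left out (adjusted p = 0.0928 and 0.101), at a log2 fold change of -0.54 in both fits. DESeq2 also called PFKM (adjusted p = 0.0180), and PFKM shares 8.58% of its exonic bases with SENP1 on the opposite strand.

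None of the genes that set the activator of phosphofructokinase passed the edgeR test, at 1 gene of 4 under an unadjusted p of 0.05 and 0 called by DESeq2 or limma-voom. PFKFB3, the isoform with the strongest kinase activity, had a mean level of 11.5 CPM per kilobase in each group, against 12.2 for PFKFB4 in the controls and 9.04 with carnosine. PFKFB3 had 76.7 and 64.3 CPM in the controls and 80.7 and 59.7 CPM with carnosine, and these groups overlapped. PFKFB4, a hypoxia-induced isoform, had 81.7 and 66.7 CPM in the controls and 64.5 and 45.9 CPM with carnosine, and the lowest control lay just above the highest carnosine library (log2 fold change -0.43 ± 0.18, adjusted p = 0.178 in edgeR). Its log2 fold change was -0.21 without carnosine replicate 2 (adjusted p = 0.406), -0.28 without control replicate 1 (0.508) and -0.70 without carnosine replicate 1, where it passed (0.0277). PFKFB4 shares 4.73% of its exonic bases with UCN2 on the same strand, which fell (log2 fold change -2.07, adjusted p = 0.0174 in edgeR). PFKFB2 had 0.24 ± 0.13 and TIGAR, a phosphatase that removes the activator, 0.04 ± 0.11.

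Promoter sequences are printed for 4 genes of glucose import and glycolysis, 2 that rose and 2 that fell. Of these 4, HK2 holds several sites of a letter pattern that the others hold once or not at all. Genes outside these 4 hold several as well, as given below. Each run is the 250 bases before a RefSeq start (GRCh38.p14), read on the gene's strand, with ACGTG or GCGTG on either strand in capitals. These letters are the core of the sites that hypoxia-inducible factors bind, and CACGTG, which contains the first of them on both strands, is the E-box that MYC and the carbohydrate response factors bind.
HK2, chr2:74834920-74835169, plus strand, the second of 2 listed starts: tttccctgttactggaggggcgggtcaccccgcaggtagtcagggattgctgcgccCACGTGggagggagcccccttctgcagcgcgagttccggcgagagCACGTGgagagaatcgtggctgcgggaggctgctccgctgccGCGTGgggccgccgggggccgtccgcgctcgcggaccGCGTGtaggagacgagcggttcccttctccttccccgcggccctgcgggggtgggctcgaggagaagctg
SLC2A1, chr1:42958869-42959118, minus strand: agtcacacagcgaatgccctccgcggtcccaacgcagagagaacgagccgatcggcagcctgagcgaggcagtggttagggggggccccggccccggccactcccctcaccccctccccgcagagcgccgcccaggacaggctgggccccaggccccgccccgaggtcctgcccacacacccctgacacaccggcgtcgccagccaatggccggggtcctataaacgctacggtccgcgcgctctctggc
ENO2, chr12:6914330-6914579, plus strand: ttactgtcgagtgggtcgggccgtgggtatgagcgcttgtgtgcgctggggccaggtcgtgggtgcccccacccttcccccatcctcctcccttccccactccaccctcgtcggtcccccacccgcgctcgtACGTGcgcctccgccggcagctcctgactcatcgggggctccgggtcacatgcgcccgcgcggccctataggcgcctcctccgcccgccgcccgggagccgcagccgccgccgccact
PFKL, chr21:44299803-44300052, plus strand: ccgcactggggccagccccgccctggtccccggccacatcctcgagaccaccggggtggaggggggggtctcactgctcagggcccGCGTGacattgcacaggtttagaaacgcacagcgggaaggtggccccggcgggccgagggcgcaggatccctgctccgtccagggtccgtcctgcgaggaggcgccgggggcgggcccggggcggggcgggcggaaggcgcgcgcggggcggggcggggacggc

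The HK2 window holds 2 copies of CACGTG and 6 matches of the shorter letters, each CACGTG counting for 2 of them, and the window of the other HK2 start holds 3 matches and no CACGTG. The ENO2 and PFKL windows hold 1 match each, and the SLC2A1 window holds none but has 1 TATAAA. Several matches were not particular to HK2. Of genes that did not pass, 1 LDHA window holds 5 matches and 2 copies of CACGTG, and the ALDOC window holds 5 matches. Of the other called genes, the GYS1 window and 1 PC window hold 2 matches each. Of 75 windows for 41 of the 44 genes, 38 held ACGTG or GCGTG, against 43.2% of 35116 windows of that length in the table, and 7 held CACGTG, against 6.34%. Windows of 1 gene can overlap, and genes with many listed starts, such as HK1 and PFKM with 7 each, weigh more. By gene, 29 of 41 held the shorter letters and 7 held CACGTG, and a share by gene over all genes was not computed. Among the called genes, 6 of 10 windows held the shorter letters, 3 of 6 for the genes that rose and 3 of 4 for those that fell. A match is a description of these letters and not a site in use.

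**Figure D3:**
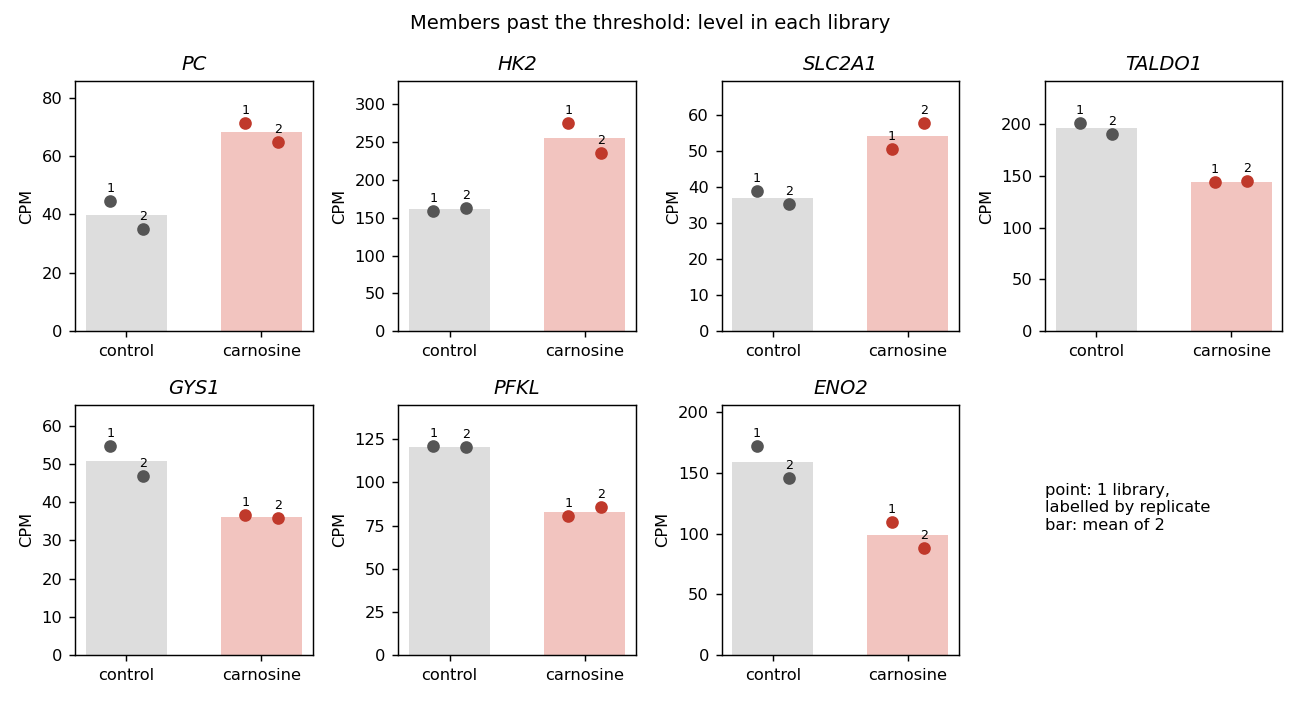
Level in CPM of the 7 genes past the threshold, with 1 point per library labelled by replicate and bars at the mean of 2 libraries. For each of the 7 genes both carnosine libraries lie on the same side of both controls, as they do for HK2 with 276 and 236 CPM against 159 and 163 CPM. The 7 were picked by a test on these same values, and 56.5% of all genes tested also lie apart.

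From aldolase to pyruvate kinase, ENO2 was the 1 gene of 10 that passed. ENO2, the neuronal enolase (ENSG00000111674.8, chromosome 12, 6913745 to 6923698), had 172 and 146 CPM in the controls and 109.8 and 88.1 CPM with carnosine and fell 1.61-fold. The groups did not overlap, and the log2 fold change was -0.68 ± 0.14 (SE, n = 2 each, adjusted p = 0.0362, edgeR). ENO1, the ubiquitous enolase, had 4756 and 4664 CPM in the controls and 4599 and 5409 CPM with carnosine, which overlapped (log2 fold change 0.09 ± 0.14). ENO2 lost its call with control replicate 1 left out (-0.57, adjusted p = 0.113) and with library totals (adjusted p = 0.0573).

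The abundant enzymes of this stretch did not pass. GAPDH, often used as a reference transcript, had 7169 and 7287 CPM in the controls and 6250.2 and 7607 CPM with carnosine, and the log2 fold change of -0.06 had a 95% interval from -0.43 to 0.31. PKM, pyruvate kinase of muscle and tumours, had 4182 and 4277 CPM in the controls and 4660.5 and 5339 CPM with carnosine, both above the controls (log2 fold change 0.24 ± 0.14, adjusted p = 0.320 in edgeR). The table counts genes and does not part the splice forms of PKM. TPI1, the triose phosphate isomerase, had 1332 and 1469 CPM in the controls and 1165 and 1385 CPM with carnosine. ALDOA (1586 and 1676 against 1391 and 1686 CPM) and PGAM1 (312 and 334 against 298 and 361 CPM) likewise overlapped. For GAPDH, TPI1, ALDOA, PGAM1 and ENO1 carnosine replicate 2 was higher than replicate 1, by 0.23 (ENO1) to 0.28 (GAPDH) on the log2 scale. PGK1, the phosphoglycerate kinase, lay below the controls at 621 and 686 CPM against 707 and 772 CPM (-0.18 ± 0.12), and ALDOC, the brain aldolase, had -0.19 ± 0.11. Pseudogenes of GAPDH fill 62 rows of the table and held 0.106% of the counts of GAPDH, and the highest share in this stretch was 2.34% for TPI1. Adding the counts of all pseudogenes to their parents left the 7 calls as they were.

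Lactate dehydrogenase and the carriers of lactate and pyruvate did not pass in edgeR, at 0 of 5 genes even at an unadjusted p under 0.05. LDHA, the subunit that favours lactate formation, had 1356 and 1346 CPM in the controls and 1468 and 1677 CPM with carnosine, with a log2 fold change of 0.22 ± 0.13. LDHB, the heart subunit, had 697 and 758 CPM in the controls and 663 and 753 CPM with carnosine, which overlapped. Of the carriers, SLC16A1, or MCT1, had 123 and 144 CPM in the controls and 108 and 139 CPM with carnosine. SLC16A3, or MCT4, the exporter of glycolytic cells, had -0.17 ± 0.10 and SLC16A7, or MCT2, had -0.10 ± 0.10. DESeq2 and limma-voom also called 0 of these 5.

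In the pentose phosphate pathway, all 7 genes had log2 fold changes below 0, beside 49.9% of all genes tested, and TALDO1, the transaldolase, was the 1 that passed. TKT and PGD lay above 0 without control replicate 1 (0.077 and 0.059), and H6PD without carnosine replicate 2 (0.016). TALDO1 (ENSG00000177156.10, chromosome 11, 747329 to 765024) had 201 and 190.2 CPM in the controls and 143 and 145 CPM with carnosine. The carnosine libraries lay closer together than the controls and below both, a 1.36-fold fall with a log2 fold change of -0.44 ± 0.10 (SE, n = 2 each, adjusted p = 0.0438, edgeR). It was not called when any 1 library was left out, with log2 fold changes from -0.48 to -0.40 and adjusted p from 0.0570 to 0.240.

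For TKT and PGD the control replicates differed more from each other than the groups did. TKT, the transketolase and the most abundant gene of the non-oxidative branch at 72.6 CPM per kilobase, had 832 and 619 CPM in the controls and 717 and 592 CPM with carnosine. In both groups replicate 1 was the higher one, and the log2 fold change was -0.15 ± 0.17. PGD, the second dehydrogenase of the oxidative branch, had 263 and 215 CPM in the controls and 231 and 219 CPM with carnosine. RPE and RPIA, the epimerase and isomerase of pentose phosphates, had -0.18 ± 0.10 and -0.17 ± 0.15, and both lay below the controls. H6PD and PGLS, of the oxidative branch, had -0.21 ± 0.19 and -0.07 ± 0.10, with overlapping libraries.

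Among 7 glycogen genes, 5 lay below both controls, as did 28.8% of all genes tested, and GYS1, the muscle-type glycogen synthase, passed. GYS1 (ENSG00000104812.14, chromosome 19, 48968125 to 48993310) had 54.6 and 46.8 CPM in the controls and 36.6 and 35.8 CPM with carnosine. The groups did not overlap, with a 1.40-fold fall and a log2 fold change of -0.49 ± 0.11 (SE, n = 2 each, adjusted p = 0.0433, edgeR). GYS1 was not called when any 1 library was left out (adjusted p from 0.0621 to 0.247) or with library totals (0.0636).

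Of the other genes of glycogen synthesis, PGM2, a mutase that acts mainly on pentose sugars, had 37.3 and 37.7 CPM in the controls and 28.0 and 29.8 CPM with carnosine and narrowly missed the threshold (-0.37 ± 0.10, adjusted p = 0.0642 in edgeR, 0.0483 in DESeq2). PGM1, the main phosphoglucomutase, had 151 and 135 CPM in the controls and 134 and 149 CPM with carnosine. These overlapped, as did those of the branching enzyme GBE1 (-0.01), while UGP2, which makes the UDP-glucose that glycogen synthase uses, had -0.10 ± 0.10. PYGB and PYGL, the brain and liver glycogen phosphorylases, had log2 fold changes of -0.42 ± 0.13 (adjusted p = 0.0992) and -0.24 ± 0.09 (0.146) in edgeR. PYGB, the more abundant, had 195 and 161 CPM in the controls and 143 and 123 CPM with carnosine, and DESeq2 called it (adjusted p = 0.0483).

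At the mitochondrial entry of pyruvate, PC, the pyruvate carboxylase that makes oxaloacetate, rose 1.71-fold, with the largest log2 fold change of the 44 genes in the edgeR fit of all 4 libraries. PC (ENSG00000173599.13, chromosome 11, 66848233 to 66958376) had 44.7 and 34.9 CPM in the controls and 71.4 and 64.8 CPM with carnosine. The difference between groups was larger than that within either, with a log2 fold change of 0.77 ± 0.14 (SE, n = 2 each, adjusted p = 0.0247, edgeR). Its call ended with control replicate 2 left out (0.60, adjusted p = 0.0765). Exons of LRFN4 lie opposite 10.5% of the exonic bases of PC, and LRFN4 had 37.1 and 28.7 CPM in the controls and 45.0 and 37.9 CPM with carnosine (adjusted p = 0.213 in edgeR). The part of LRFN4 reads in the count of PC was not tested.

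The mitochondrial pyruvate carrier is built from MPC1 and MPC2. MPC1 had 8.57 and 10.3 CPM in the controls and 13.1 and 14.2 CPM with carnosine, both above the controls. Its log2 fold change of 0.53 ± 0.15 missed the threshold in edgeR (adjusted p = 0.0722) and passed in DESeq2 (0.0327). MPC2 had 87.9 and 90.0 CPM in the controls and 84.1 and 91.7 CPM with carnosine, which overlapped, and stood higher than MPC1 per kilobase (34.7 against 7.45).

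**Figure D4:**
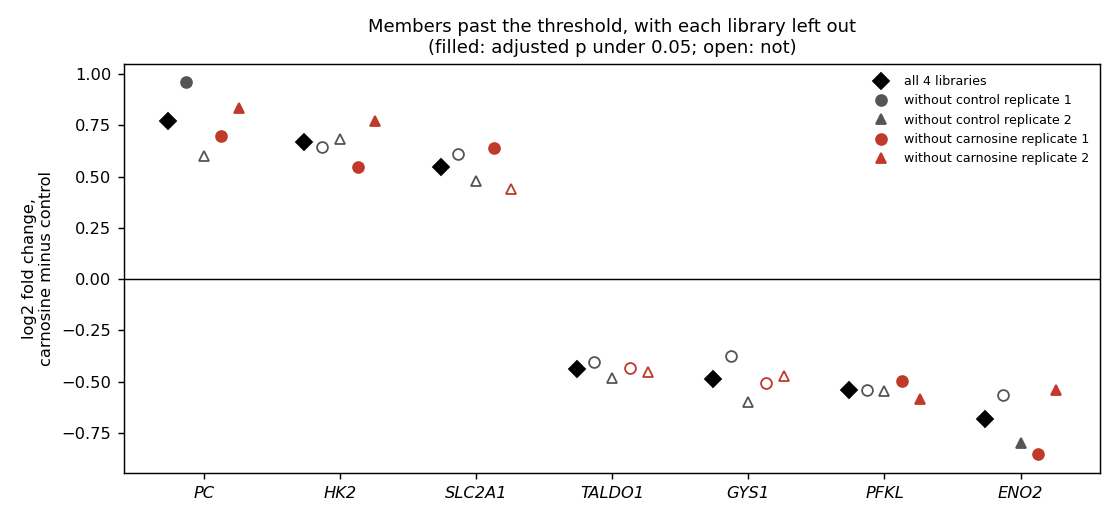
Log2 fold change of the 7 genes past the threshold with all 4 libraries (black) and with each library left out in turn. The signs stay as they were, from 0.44 to 0.96 for the genes that rose and from -0.86 to -0.37 for those that fell, while open symbols mark fits in which the gene was not past the threshold. As the groups of each gene lie apart, a left-out library could hardly turn a sign.

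Isoform shares cancel the scaling of libraries, so they show how the make-up of a step differed. Of 11 families, the share of the first-listed member did not overlap between groups in 8. This count depends on the member listed first, since the shares of PFKM and ENO3 overlapped while those of PFKL and ENO2 did not. Shares were not computed for families of other genes, so the 8 have no background. Levels of single genes, a different measure, lay apart in 56.5% of all genes tested and in 28 of the 44 (63.6%). Both carnosine libraries lay above both controls for 10 of the 44 (22.7%, against 27.8% of all genes) and below for 18 (40.9%, against 28.8%). With 2 libraries against 2, the smallest p of a two-sided exact permutation test is 0.333, so that test cannot reach the threshold and the shares are given as a description. MPC1 made up 13.9% and 15.9% of the pyruvate carrier's summed level per kilobase in the controls and 20.4% and 20.3% with carnosine, a difference of 5.50 percentage points. PFKFB4 made up 48.4% and 46.7% of the 3 PFKFB enzymes in the controls and 40.6% and 39.0% with carnosine, with PFKFB3 the larger share only with carnosine (50.7% and 50.6%, against 45.4% and 45.0%). For both families the groups were apart by more than their spread. The share of MPC1 rests on the count of MPC2, whose exons overlap those of DCAF6.

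LDHA went from 48.3% and 46.0% of lactate dehydrogenase to 51.5% and 51.7%, although neither subunit passed the test on its own. The size of this share depends on the exon lengths, as LDHA stood above LDHB in CPM in every library. ENO2 went from 4.26% and 3.72% of the enolases to 2.85% and 1.97%. PGM1 made up 78.1% and 75.9% of the phosphoglucomutases in the controls and 80.7% and 81.4% with carnosine. In each of these 3 families the carnosine libraries stood on 1 side of the controls. PFKL made up 9.77% and 10.2% of phosphofructokinase in the controls and 8.57% and 8.89% with carnosine. HK2 had 18.8% and 20.1% of the level of HK1 and HK2 in the controls, and its carnosine libraries differed, at 26.6% and 20.9%, the lower being close to the controls. The shares of SLC2A1 in the glucose transporters, SLC16A1 in the lactate carriers and PYGL in the phosphorylases overlapped between groups.

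**Figure D5:**
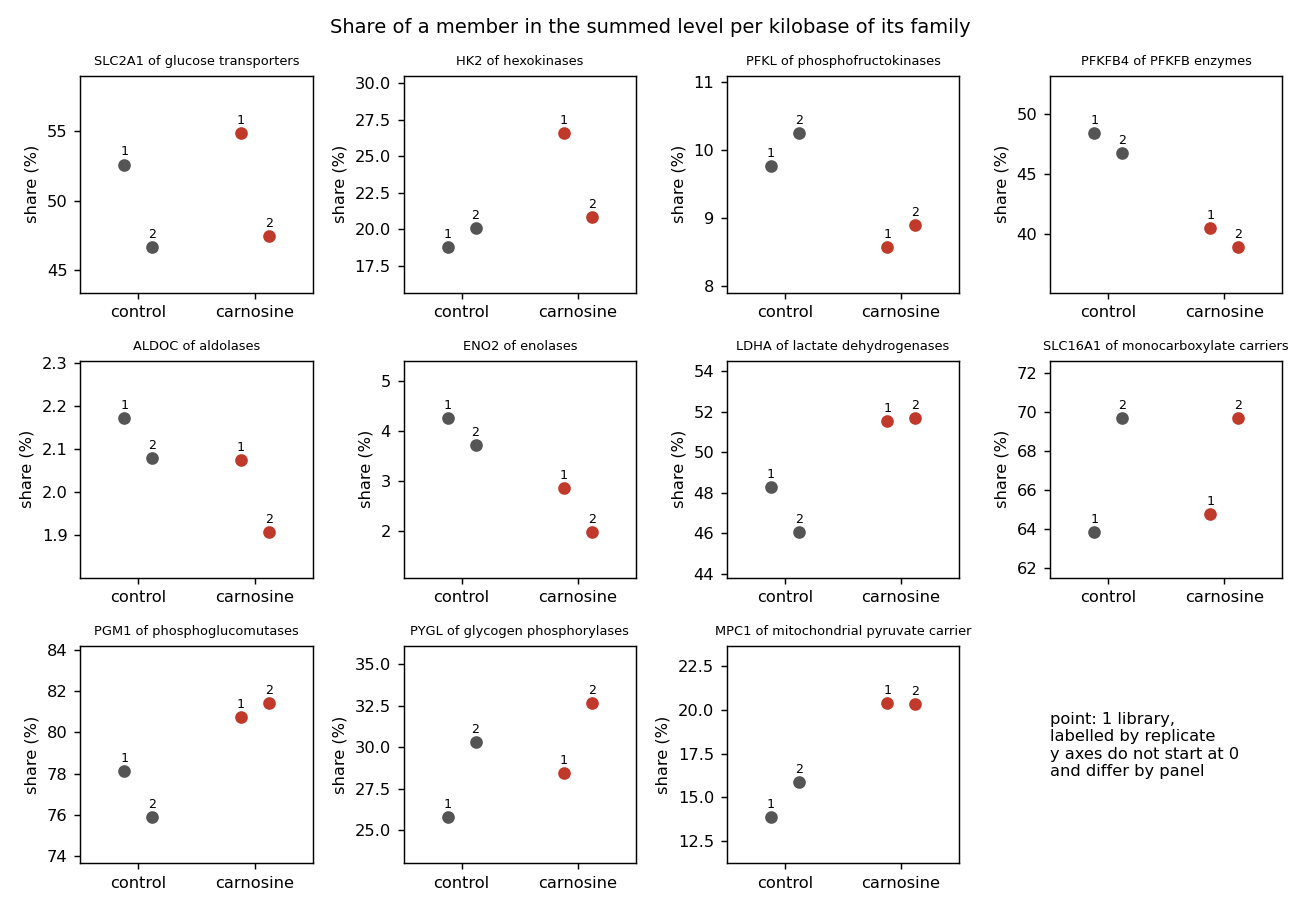
Share of 1 member in the summed CPM per kilobase of its family, in percent, with 1 point per library labelled by replicate and a separate axis range in each panel. In the MPC1 panel the controls stand at 13.9% and 15.9% and the carnosine libraries at 20.4% and 20.3%, while the SLC2A1, SLC16A1 and PYGL panels overlap.

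Beyond the 44, a list of 70 other genes of the same pathways held 39 that were tested, of which 2 rose and 3 fell. PPP1R3F, a subunit that targets a phosphatase to glycogen, rose 2.57-fold, with 5.27 and 3.75 CPM in the controls and 11.4 and 11.9 CPM with carnosine (log2 fold change 1.36 ± 0.20, adjusted p = 0.0170, edgeR). SLC2A12, or GLUT12, rose 2.29-fold, from 2.11 and 1.77 CPM to 4.86 and 4.03 CPM (1.19 ± 0.23, adjusted p = 0.0294, edgeR). Both lie at low levels, with 104 to 683 counts in a library.

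PCK2, the mitochondrial carboxykinase that makes phosphoenolpyruvate from oxaloacetate, the product of PC, fell 3.03-fold. It had 17.7 and 18.8 CPM in the controls and 7.50 and 4.49 CPM with carnosine (log2 fold change -1.60 ± 0.23, adjusted p = 0.0170, edgeR). DERA, an aldolase of deoxyribose phosphate, and BPGM, which turns a glycolytic intermediate into bisphosphoglycerate, fell by 0.59 ± 0.10 (adjusted p = 0.0212) and 0.57 ± 0.11 (adjusted p = 0.0283, edgeR) on the log2 scale. PCK2 and PPP1R3F were called without any 1 of the 4 libraries. With a library left out, DERA lost its call for control replicate 1 (adjusted p = 0.0837) and 2 (0.0603), SLC2A12 for control replicate 2 (0.0925) and carnosine replicate 1 (0.0610), and BPGM for each library but carnosine replicate 2 (0.0507 to 0.143).

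The 31 genes of that list that were not tested include isoforms of other tissues. PKLR, FBP1, G6PC and HK3, of the liver and of blood cells, had 0 counts in all 4 libraries, and PCK1, the cytosolic carboxykinase, had 1 count. Of the 6 tested pentose phosphate genes in the list, 0 lay above 0 and the median was -0.48. Of its 18 tested glycogen genes, 13 lay above 0 and the median was 0.21. The 7 glycogen genes among the 44 lay below 0 with this scaling, GBE1 and PGM1 turning with library totals. Of all genes tested, 49.9% lay below 0. Only PPP1R3F of the 18 and GYS1 of the 7 passed the threshold. The list as a whole had a median of -0.02, with 5 of 39 genes past the threshold beside 8.31% of all genes.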

How the data were processed

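RNA of U87 cells was sequenced after removal of ribosomal RNA. The authors deposited whole-number counts per gene, not normalized. Tools listed per the submitters' processing notes are HISAT2 2.1.0, HTSeq 0.6.1 and bcl2fastq 2.17.0, and the build is hg38. Not given in the sources used here are the annotation release, the strand setting and the handling of reads that fit several genes, so counts of overlapping genes and of genes with near-identical copies are uncertain.

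Genes were kept by edgeR's filterByExpr (a count of 10, or 0.171 CPM, in 2 libraries and a total of 15). They were scaled by TMM (factors 0.976 to 1.04) and tested with edgeR 4.0.16 in R 4.3.3: a two-sided quasi-likelihood test with a single term for group, Benjamini-Hochberg over 16340 genes, threshold 0.05. The SE is the log2 fold change divided by the square root of F, and 95% intervals use 6.92 degrees of freedom. DESeq2 1.42.0 and limma 3.58.1 were alternatives. Positions and exon lengths come from GENCODE 29 (57881 identifiers matched), promoters from RefSeq. The tests were tried on simulated data.

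The members, lists and the naming rule (every member by step, with values in every library for those past the threshold and for the most abundant of each step, and each other pathway gene past the threshold) were chosen with earlier results of these data known. Some further members were given by library after their values were seen. The labels do not say that replicates were separate cultures, so p-values may measure technical spread alone. Within each group the 2 libraries differed beyond sampling noise, with a chi-square of 33.8 and 53.0 per degree of freedom.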

Additional observations from a re-analysis of the deposited data

How the results depend on the processing

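The 7 called members kept their direction in all 91 refits (13 for each), and 19 of these were not past the threshold: 17 with a library left out, and ENO2 and GYS1 with library totals, where 2 members were called lower. With a library left out, the count of genes called ran from 505 to 1595, of members higher from 0 to 4, of members lower from 0 to 3, and of other pathway genes from 2 to 7. Such a fit has fewer samples, with 1 residual degree of freedom, and the lone library of a group is assumed to vary like the other group. Each of the 7 had both carnosine libraries on 1 side of both controls, so leaving out a library could hardly turn its sign. The 7 were picked by the test on these same libraries, so their kept direction is a description and not separate support. Without a filter on low counts there were 3145 genes, 5 members higher, 8 lower and 11 other pathway genes. DESeq2 called 2211 genes, 7 members lower and 9 other pathway genes. Same-numbered libraries deviated together from their group means (r = 0.45 over genes, which are not independent replicates), but the labels give no reason for the number and there are 2 pairs. With the replicate block 5767 genes, 8 members higher, 11 lower and 16 other pathway genes were called. The cause of these differences between settings was not tested. Signs turned for 13 of the 37 members that were not called. PFKFB3 had 0.0011 with DESeq2's size factors, 0.0010 with DESeq2, 0.012 with upper quartiles and 0.026 with library totals. GBE1 had 0.00070, 0.00068, 0.0094 and 0.017 in that order. With library totals, PGM1 had 0.0016 and MPC2 0.0061. With a library left out, log2 fold changes ran from -0.24 to 0.19 for PFKFB3, -0.23 to 0.045 for ALDOA, -0.21 to 0.071 for GAPDH, -0.12 to 0.16 for PGAM1, -0.039 to 0.20 for ENO1, -0.14 to 0.047 for LDHB, -0.31 to 0.050 for SLC16A1, -0.48 to 0.016 for H6PD, -0.23 to 0.059 for PGD, -0.35 to 0.077 for TKT, -0.11 to 0.061 for PGM1, -0.065 to 0.043 for GBE1 and -0.085 to 0.042 for MPC2. The lowest count of a member in any library was 162. The share of PFKL and of MPC1 differed by -1.87 and 3.85 percentage points in shares of counts.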
